A study of Cucumis sativus with 8 samples.

Results

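The 150 genes described here were raised by RNAi in both tissues of this cucumber data set, and they were taken from 17783 genes. They were chosen by measured values. With 0.5 added to every RPM (reads of a gene scaled to an equal total of reads on genes in each library), the lower of the 2 RNAi libraries was divided by the higher of the 2 WT libraries in each tissue, and the smaller of the log2 ratios in vein and in fruit was a gene's score. Of the 16641 genes with a mean of at least 1 RPM in WT vein, 2410 had a score above 0, and the 150 with the highest scores were kept. A score of 1 thus stands for a doubling of RPM + 0.5 between the nearest RNAi and WT libraries in the tissue with the smaller ratio. In the other tissue it stands for at least a doubling.

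RNA was sequenced from cucumber (Cucumis sativus) inbred line R1461, as WT plants and as plants of 1 transgenic line in the same background that carries an RNAi construct against the gene named CsIND in the labels and CsIVP in the study, a bHLH transcription factor gene. That line, R5, had the mildest appearance of the lines the study describes. Midveins were cut from young expanded leaves, and young fruits were taken 4 d before anthesis. Each tissue of each genotype gave 2 libraries, 8 in all, and libraries are given below in the order replicate 1, replicate 2.

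Plants meet pathogens and other stresses with receptors at the cell surface and inside the cell, calcium sensors, hormone signals and transcription factors, which raise secreted defence proteins and enzymes that detoxify or make small molecules. RNA silencing is a further arm, in which RNA-dependent RNA polymerases copy RNA into double strands and Dicer-like enzymes cut these into small RNAs. Some members carry names from these classes, while 28 have none. Members were 122 of the 2885 named genes. They were 4 of 87 genes named for defence proteins and 8 of 173 named for transcription factors. They were 13 of 129 for detoxification and conjugation and 21 of 326 for kinases, receptors and calcium. The names are those of Arabidopsis matches in the study's tables, which list genes it found changed. Genes not listed there have no name here, so groups made by name hold mostly changed genes. Of the members, 122 had a name there, 16 were listed without one, and 12 were not in the part of those tables used here.

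Between 18088985 and 22979345 reads per library were recovered from the RPM values, so that 1 read is worth at most 0.0553 RPM. In 14.9% of the 17778 genes tested the RNAi vein libraries differed by over 2-fold, against 0.450% to 2.36% in the other groups. CsIVP (Csa6G483450) drew no read in any vein library, a limit of 0.166 RPM or lower for counting error, and was at 42.3 and 52.1 RPM in RNAi fruit and 50.0 and 38.3 RPM in WT fruit. Its level in these libraries therefore does not separate the genotypes, and the directions below rest on the library labels. The study itself reports less CsIVP transcript by quantitative PCR and less protein by immunoblot in its RNAi lines, R5 among them. The 6 genes named for phloem proteins or sieve elements summed to between 91.8 and 156 RPM in every library. Within that sum, 5 of the 6 were called up in RNAi vein by a limma fit (Benjamini-Hochberg adjusted p under 0.05 and at least 2-fold) and 1 was called down, Csa2G193340 (sieve-element-occlusion-related 1), at 109 and 89.4 RPM in WT vein and 23.5 and 19.5 RPM in RNAi vein. The 17 named with the words irregular xylem, IRX, laccase or cellulose synthase summed to between 379 and 519 RPM. Cellulose synthase-like genes are among these 17, so the sum is no measure of xylem alone. In vein 5 of the 17 were called up and 5 down by limma, and 5 up and 12 down by edgeR and by DESeq2. The 21 named for photosystem, chlorophyll-binding or Rubisco proteins summed to 32025 and 29277 RPM in WT vein, 2715 and 16483 RPM in RNAi vein, and 3391 to 4969 RPM in fruit. Fewer cells of a type and less RNA per cell cannot be told apart in such tissue samples.

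The members together made up 0.174% and 0.233% of WT vein libraries, 3.68% and 2.33% of RNAi vein, 0.197% and 0.181% of WT fruit, and 0.823% and 0.716% of RNAi fruit. The median member was at 4.45 and 6.63 RPM in WT vein and at 153 and 100.1 RPM in RNAi vein. The fruit values were 5.19 and 4.22 RPM in WT and 30.6 and 25.7 RPM in RNAi. The median of all genes tested stayed between 17.7 and 26.3 RPM in the same libraries. The members were thus below the median gene in WT plants of both tissues, well above it in RNAi vein and near it in RNAi fruit. No member was at 0 reads in any library, and 2 members were under 3 reads in each WT fruit library.

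**Figure D1:**
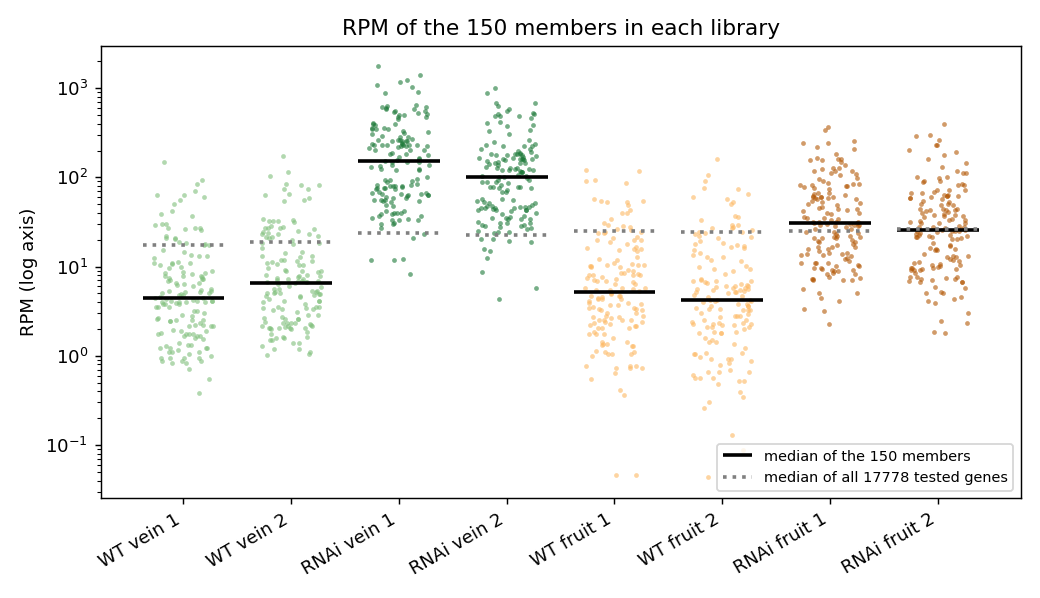
RPM of the 150 members (points, log axis) in each of the 8 libraries, with the median member as a solid line and the median of the 17778 tested genes as a dotted line. The median member lies at 4.45 and 6.63 RPM in WT vein, 153 and 100.1 RPM in RNAi vein, 5.19 and 4.22 RPM in WT fruit, and 30.6 and 25.7 RPM in RNAi fruit.

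A limma fit of log2(RPM + 0.5) over the 8 libraries gave a log2 fold change of RNAi over WT for each gene, which understates the change of genes with few reads. In vein the members ranged from 1.37 to 7.37 with a median of 4.19, beside 0.20 for all genes. In fruit they ranged from 1.19 to 4.99 with a median of 2.09, beside -0.01 for all genes. A gene was called at a Benjamini-Hochberg adjusted p under 0.05 and at least 2-fold. In vein 150 of the 150 members were called up, where 14% of all genes were. In fruit 55 were called up, where 0.422% of all genes were. Over all genes, both RNAi libraries were above both WT libraries in both tissues in 15.2%. The rule used these contrasts, so the counts describe the selection and are no test of it.

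The smaller change was that in fruit for most members. The fruit ratio set the score in 144 members and the vein ratio in 6. The number called in fruit depended on the libraries in the fit. It was 0 without any 1 of the 4 fruit libraries (134 to 142 at an unadjusted p under 0.05), 12 without either WT vein library and 140 without either RNAi vein library. All groups share 1 estimate of the spread in this fit, and the calls over all genes moved in the same direction under these omissions. edgeR called 45 members up in fruit, where it called 0.332% of all genes, and DESeq2 140, where it called 1.83%. The direction did not turn, and the fitted change in fruit was at least 0.96 for each member under each of 20 settings. Where TMM factors replaced RPM, the median of all genes in vein moved from 0.20 to -0.04 and that of the members from 4.19 to 3.95.

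**Figure D2:**
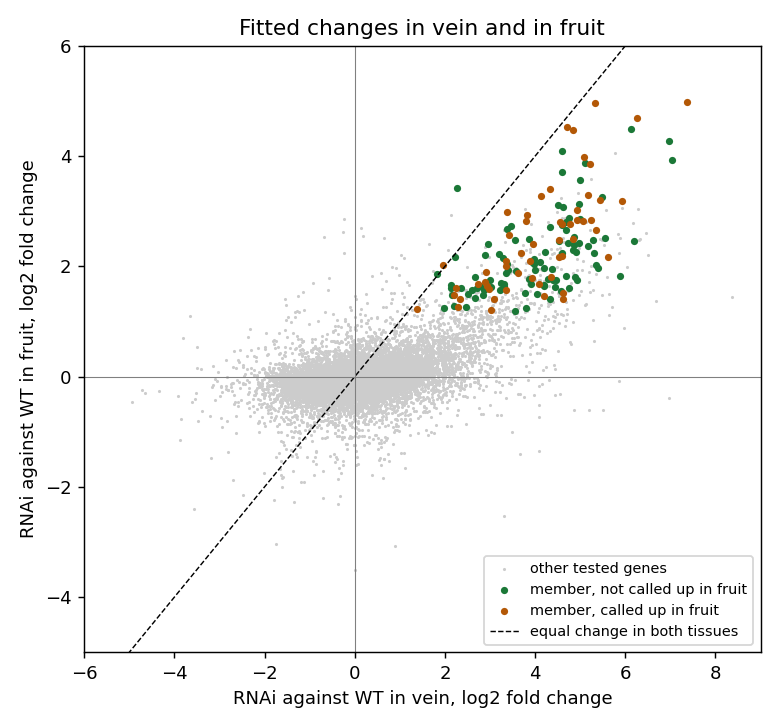
Fitted log2 fold change of RNAi over WT in vein (x axis) and in fruit (y axis) for all tested genes (grey) and the members, coloured by whether they were called up in fruit. The members lie between 1.37 and 7.37 in vein and between 1.19 and 4.99 in fruit, and 147 of 150 lie below the dashed line of equal change.

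The scores had a median of 1.55, with 47 members at 2 or more and 11 at 3 or more. Just inside the limit were Csa6G007450 (a UDP-glycosyltransferase, score 1.07), Csa4G285780 (peroxidase 2, 1.06) and Csa5G148780 (a DCD domain protein, 1.06). Just outside were Csa2G431070 (an HXXXD-type acyltransferase, 1.05), Csa1G002860 (a leucine-rich repeat kinase, 1.05) and Csa2G408940 (no name, 1.04). The step at the limit is thus 0.01 on the log2 scale, and the 150 genes are the upper end of a graded series.

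Csa3G002400, annotated as acyl activating enzyme 1, of a family that joins carboxylic acids to coenzyme A, had the highest score, 4.66. It was at 1.66 and 3.57 RPM in WT vein, 594 and 405 RPM in RNAi vein, 2.50 and 2.79 RPM in WT fruit and 82.6 and 119 RPM in RNAi fruit. The log2 fold change was 7.37 (SE 0.35) in vein and 4.99 (SE 0.35) in fruit. The genotypes did not overlap, as the rule requires, and the WT vein libraries were further apart than the pairs of the other groups. Csa5G515060, which has no name, followed at 5.58 and 9.21 RPM in WT vein, 253 and 161 RPM in RNAi vein, 0.774 and 1.22 RPM in WT fruit and 44.05 and 25.6 RPM in RNAi fruit. Csa6G032470, annotated as a regulator of the ATPase Vps4, which acts in the sorting of membrane proteins, was at 5.03 and 5.54 RPM in WT vein, 237 and 229.9 RPM in RNAi vein, 2.55 and 0.653 RPM in WT fruit and 76.02 and 43.96 RPM in RNAi fruit. In both of these genes the change in vein and that in fruit were nearly the same, at 4.72 and 4.53 for Csa5G515060 and 5.34 and 4.96 for Csa6G032470 on the log2 scale.

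An alpha/beta-hydrolase, Csa6G401340, was at 2.16 and 5.35 RPM in WT vein, 502 and 180.4 RPM in RNAi vein, 0.728 and 0.131 RPM in WT fruit and 31.5 and 15.5 RPM in RNAi fruit. Its WT fruit level in replicate 2 amounts to 3 reads, so the fold in fruit is imprecise. Csa3G643770, a cytochrome P450 of the oxygenases that modify small molecules, was at 10.6 and 20.8 RPM in WT vein, 548 and 492 RPM in RNAi vein, 4.42 and 3.66 RPM in WT fruit and 82.3 and 61.5 RPM in RNAi fruit. The unnamed Csa6G486960 was at 1.38 and 2.02 RPM in WT vein, 504 and 149.9 RPM in RNAi vein, 2.32 and 0.566 RPM in WT fruit and 32.03 and 33.9 RPM in RNAi fruit. Its RNAi vein libraries were 3.37-fold apart. The P-loop nucleoside triphosphate hydrolase Csa5G292250 was at 4.48 and 13.1 RPM in WT vein, 303 and 132 RPM in RNAi vein, 1.37 and 0.914 RPM in WT fruit and 42.6 and 17.3 RPM in RNAi fruit.

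**Figure D3:**
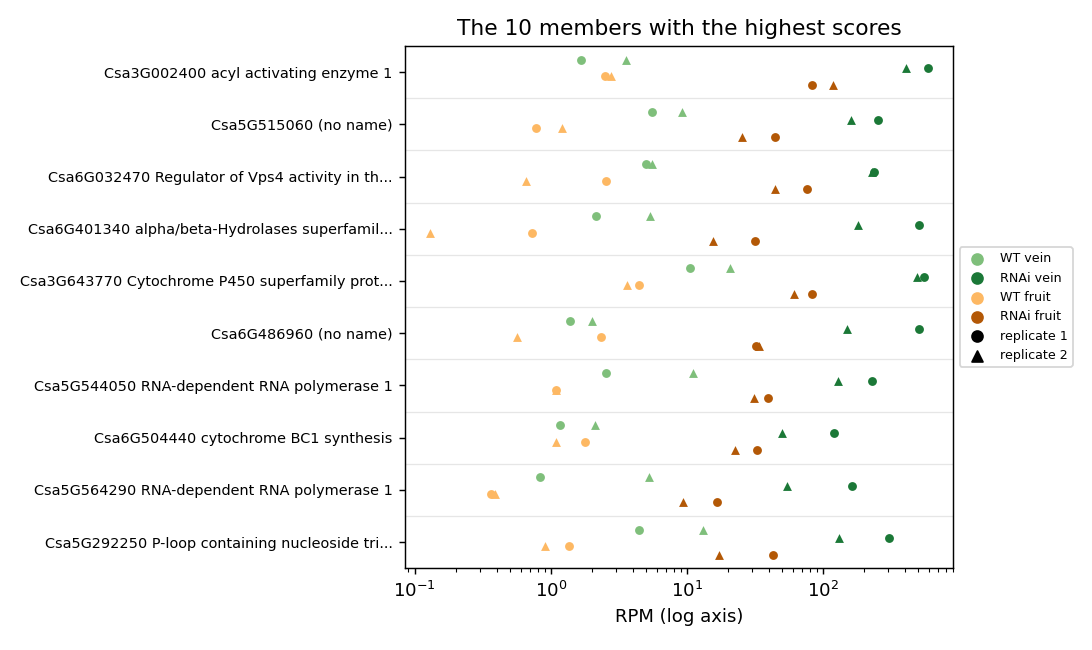
RPM (log axis) of the 10 members with the highest scores in each library, with colours for the groups, circles for replicate 1 and triangles for replicate 2. In each of the 10 genes the 2 RNAi libraries of a tissue lie above the 2 WT libraries, as the rule requires, and the RNAi vein libraries lie above the RNAi fruit libraries.

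RNA silencing genes were picked out after their values were seen, and the count of them has no test. Among the 6 genes so named that were tested, 3 were members. Names were available only for genes the study lists as changed, so calls of such genes in vein are no test either. Csa5G544050 and Csa5G564290 are both annotated as RNA-dependent RNA polymerase 1, an enzyme with a part in defence against viruses in Arabidopsis and tobacco. Csa5G544050 was at 2.54 and 11.1 RPM in WT vein, 227 and 129 RPM in RNAi vein, 1.09 and 1.09 RPM in WT fruit and 39.4 and 31.04 RPM in RNAi fruit. Csa5G564290 was lower, at 0.829 and 5.25 RPM in WT vein, 163 and 54.7 RPM in RNAi vein, 0.364 and 0.392 RPM in WT fruit and 16.6 and 9.29 RPM in RNAi fruit. In both genes WT vein replicate 2 was above replicate 1, by 4.38-fold and 6.34-fold, while the WT fruit libraries were 1.00-fold and 1.08-fold apart. The change on the log2 scale was 4.85 in vein and 4.48 in fruit for Csa5G544050, and 5.10 and 3.88 for Csa5G564290. The vein change was larger by 0.37 (SE 0.84) and 1.22 (SE 1.09), differences within about 1 standard error.

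Dicer-like 4 (Csa1G267180), which cuts double-stranded RNA into small interfering RNAs, was at 41.6 and 64.7 RPM in WT vein, 892 and 588 RPM in RNAi vein, 94.7 and 91.5 RPM in WT fruit and 209.5 and 233 RPM in RNAi fruit. Its change was 3.79 (SE 0.27) in vein and 1.24 (SE 0.27) in fruit. In fruit limma called Csa5G544050 (adjusted p = 0.0444) and did not call Csa5G564290 (adjusted p = 0.155) or dicer-like 4 (adjusted p = 0.19). The remaining 3 genes of this kind, which are no members, were also called up in vein and not in fruit. Of these, Csa5G239140, another gene annotated as RNA-dependent RNA polymerase 1, was at 103 and 122 RPM in WT vein, 769 and 362 RPM in RNAi vein, 252 and 229 RPM in WT fruit and 312 and 336 RPM in RNAi fruit. Csa5G239640 of the same name was at 126 and 143 RPM in WT vein, 506 and 241 RPM in RNAi vein, 243 and 224 RPM in WT fruit and 268 and 323 RPM in RNAi fruit. In these, WT fruit was already above WT vein, and the changes in fruit were 0.43 and 0.34 on the log2 scale. Genes of 1 name may be near-identical copies that share reads. Their similarity was not checked, so values of single copies are uncertain, here and in the families below.

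The lists in the following paragraphs were made by words in the gene names, and a gene can be in several. As the named genes are those the study's tables list as changed, 58.0% of the 2885 tested were called up in vein and 1.87% in fruit. Of these 2885 genes, 122 were members. These are the levels to read the calls and the number of members in each list against. No named gene was called down in fruit by limma, where 68 fell at an unadjusted p under 0.05. edgeR called 0 down there and DESeq2 10. At least 1 list took in 71 members.

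Defence proteins numbered 4 members among 87 named genes, of which 66 were called up and 8 down in vein, and 1 up in fruit. Csa2G020870, a TIR-NBS-LRR protein of the intracellular immune receptors, was at 2.65 and 3.81 RPM in WT vein, 219 and 147 RPM in RNAi vein, 6.69 and 5.61 RPM in WT fruit and 34.5 and 25.01 RPM in RNAi fruit. Osmotin 34 (Csa5G155450), a thaumatin-like protein of the PR-5 family, was at 2.87 and 2.84 RPM in WT vein, 203 and 93.2 RPM in RNAi vein, 9.24 and 6.31 RPM in WT fruit and 29.4 and 35.96 RPM in RNAi fruit. Each was raised more in vein than in fruit, at 5.61 against 2.17 and 5.36 against 2.02 on the log2 scale. Both members named pathogenesis-related family protein took many reads in RNAi vein. Csa7G318990 was at 38.97 and 82.1 RPM in WT vein, 1089 and 889.8 RPM in RNAi vein, 42.9 and 16.5 RPM in WT fruit and 91.5 and 144 RPM in RNAi fruit. Csa6G338110 was at 10.3 and 32.7 RPM in WT vein, 911 and 224 RPM in RNAi vein, 19.03 and 16.9 RPM in WT fruit and 56.7 and 50.1 RPM in RNAi fruit. Its RNAi vein libraries were 4.08-fold apart, and its change in fruit was 1.55 on the log2 scale.

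Detoxification and conjugation enzymes had 13 members among 129 named genes, of which 79 were called up and 25 down in vein, and 7 up in fruit. The members' median change was 4.75 in vein and 1.80 in fruit, and that of the 116 other genes of the list 1.52 and 0.13. The rule took members by these changes, so the gap follows from the choice. Glutathione S-transferases of the tau class, which attach glutathione to reactive molecules, gave 4 members. Csa1G033120 (tau 9) was at 4.04 and 7.81 RPM in WT vein, 332 and 415 RPM in RNAi vein, 5.37 and 5.83 RPM in WT fruit and 62.2 and 48.5 RPM in RNAi fruit. Csa3G133880 (tau 23) was at 0.940 and 1.64 RPM in WT vein, 76.3 and 44.03 RPM in RNAi vein, 3.73 and 2.52 RPM in WT fruit and 22.2 and 27.5 RPM in RNAi fruit. The 25 genes named glutathione S-transferase, a family picked after its values were seen, had 24 called up in vein and 2 in fruit. The P450 gene Csa3G651820 stood out by its replicates, at 0.885 and 1.98 RPM in WT vein, 33.3 and 158 RPM in RNAi vein, 1.32 and 0.957 RPM in WT fruit and 10.1 and 5.10 RPM in RNAi fruit. Here RNAi vein replicate 2 was the higher one.

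UDP-glycosyltransferases, which add sugars to small molecules, covered both ends of the range. Csa3G592690, annotated as glycosyltransferase 74E2, was at 1.22 and 2.55 RPM in WT vein, 233 and 121 RPM in RNAi vein, 1.05 and 0.305 RPM in WT fruit and 7.34 and 4.37 RPM in RNAi fruit, a change of 6.20 in vein and 2.47 in fruit on the log2 scale. Csa6G007450 was at 1.66 and 6.80 RPM in WT vein, 23.4 and 14.8 RPM in RNAi vein, 1.78 and 0.522 RPM in WT fruit and 9.73 and 25.4 RPM in RNAi fruit. It was 1 of the 3 members that changed more in fruit than in vein, 3.42 against 2.27, with a difference of -1.15 (SE 1.02) that is within its error. A pair of members in the detoxification list carry the names of drug resistance transporters. Csa3G769610 (multidrug resistance-associated protein 3) changed by 4.46 in vein and 1.75 in fruit, and Csa2G433930 (pleiotropic drug resistance 12) by 3.93 and 1.79.

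Phenylpropanoid, lignin and phenolic enzymes had 5 members among 73 named genes, of which 42 were called up and 12 down in vein, and 2 up in fruit. Caffeoyl-CoA 3-O-methyltransferase (Csa5G589940), an enzyme of lignin precursor synthesis, was at 36.8 and 31.9 RPM in WT vein, 125 and 144 RPM in RNAi vein, 24.4 and 21.6 RPM in WT fruit and 80.6 and 113 RPM in RNAi fruit. Its change was the same in both tissues within error, 1.95 (SE 0.19) in vein and 2.03 (SE 0.19) in fruit. The peroxidases, which can couple phenolic precursors, were Csa5G167220 at 0.940 and 3.47 RPM in WT vein, 93.4 and 31.1 RPM in RNAi vein, 2.05 and 0.914 RPM in WT fruit and 21.4 and 11.7 RPM in RNAi fruit and Csa4G285780. The latter was at 26.6 and 64.1 RPM in WT vein, 1392 and 509 RPM in RNAi vein, 119 and 161 RPM in WT fruit and 338 and 397 RPM in RNAi fruit, so that WT fruit was above WT vein. HXXXD-type acyltransferase Csa4G639960 was at 6.52 and 6.85 RPM in WT vein, 75.7 and 167 RPM in RNAi vein, 5.55 and 4.004 RPM in WT fruit and 27.7 and 15.8 RPM in RNAi fruit.

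Hormone synthesis and response genes had 9 members among 95 named genes, of which 60 were called up and 20 down in vein, and 4 up in fruit. On the ethylene side, Csa6G421630 is annotated as ethylene-forming enzyme, which carries out the last step of ethylene synthesis, and was at 27.3 and 33.4 RPM in WT vein, 619.7 and 165 RPM in RNAi vein, 20.03 and 29.5 RPM in WT fruit and 125 and 82.5 RPM in RNAi fruit. Ethylene response factor 1 (Csa2G177210), a transcription factor of that pathway, was at 1.93 and 1.40 RPM in WT vein, 58.3 and 23.7 RPM in RNAi vein, 0.774 and 0.653 RPM in WT fruit and 13.6 and 9.33 RPM in RNAi fruit. Csa3G135120 of the same name was at 3.15 and 2.70 RPM in WT vein, 39.8 and 28.1 RPM in RNAi vein, 3.004 and 2.09 RPM in WT fruit and 11.04 and 7.68 RPM in RNAi fruit. The level of Csa6G421630 in RNAi vein differed 3.74-fold between libraries.

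Jasmonate genes included 2 of the 3 members in which both RNAi fruit libraries were above both RNAi vein libraries. Allene oxide cyclase 3 (Csa5G366670) makes a jasmonate precursor and was at 5.14 and 7.18 RPM in WT vein, 32.98 and 28.4 RPM in RNAi vein, 34.5 and 36.8 RPM in WT fruit and 117 and 102 RPM in RNAi fruit. Jasmonate-zim-domain protein 1 (Csa1G597690), a repressor of jasmonate response that jasmonate itself induces, was at 13.4 and 14.8 RPM in WT vein, 60.4 and 43.3 RPM in RNAi vein, 49.4 and 50.1 RPM in WT fruit and 127 and 263 RPM in RNAi fruit. In both, WT fruit was already near the level of RNAi vein, and RNAi fruit was the highest group. Csa3G645940, with the TIFY domain that JAZ proteins carry, was at 6.91 and 8.82 RPM in WT vein, 80.02 and 45.5 RPM in RNAi vein, 23.8 and 18.1 RPM in WT fruit and 66.2 and 59.7 RPM in RNAi fruit. The changes in fruit were 1.60, 1.87 and 1.57 on the log2 scale, and those in vein 2.24, 1.83 and 2.87. The hormone list also takes in 2-oxoglutarate-dependent oxygenases, a broad class of which only some make or break down hormones. Csa3G135740 was at 1.77 and 2.17 RPM in WT vein, 151 and 76.1 RPM in RNAi vein, 5.51 and 3.22 RPM in WT fruit and 30.4 and 61.5 RPM in RNAi fruit, and Csa3G135720 was at 4.04 and 4.29 RPM in WT vein, 228 and 157 RPM in RNAi vein, 8.01 and 4.13 RPM in WT fruit and 46.2 and 32.9 RPM in RNAi fruit.

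Transcription factors had 8 members among 173 named genes, of which 110 were called up and 30 down in vein, and 3 up in fruit. The words of the list leave out further members, such as ethylene response factor 1 above and heat shock factor 4 (Csa6G490870). WRKY names are missing from the part of the study's tables used here, so WRKY factors could not be counted. NAC factors, many of which act in stress and senescence, gave 4 of them. Csa1G572390 was at 12.5 and 18.3 RPM in WT vein, 347 and 180.5 RPM in RNAi vein, 15.8 and 17.7 RPM in WT fruit and 59.9 and 72.1 RPM in RNAi fruit. Csa6G127320 (NAC domain containing protein 36) was at 8.35 and 10.99 RPM in WT vein, 157 and 72.6 RPM in RNAi vein, 3.23 and 2.002 RPM in WT fruit and 13.5 and 9.15 RPM in RNAi fruit. The salt tolerance zinc finger gene Csa2G354820 was at 1.77 and 1.49 RPM in WT vein, 79.9 and 19.2 RPM in RNAi vein, 2.82 and 2.22 RPM in WT fruit and 20.9 and 9.24 RPM in RNAi fruit. Myb domain protein 62 (Csa6G040640) was at 0.885 and 4.15 RPM in WT vein, 205 and 25.3 RPM in RNAi vein, 3.05 and 1.78 RPM in WT fruit and 14.1 and 13.1 RPM in RNAi fruit, and its RNAi vein libraries were 8.10-fold apart. The bHLH gene Csa3G011620 changed least in vein among the 8 members of the list, and was at 49.9 and 54.4 RPM in WT vein, 294 and 185 RPM in RNAi vein, 90.8 and 76.7 RPM in WT fruit and 241 and 228 RPM in RNAi fruit. Outside the words of the list, Csa4G664530 is annotated as basic region/leucine zipper motif 60, which in Arabidopsis acts in the unfolded protein response, and was at 27.03 and 25.4 RPM in WT vein, 229 and 227 RPM in RNAi vein, 30.5 and 29.2 RPM in WT fruit and 96.7 and 66.2 RPM in RNAi fruit. Its libraries were close within each group.

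Kinases, receptors and calcium proteins had 21 members among 326 named genes, of which 239 were called up and 44 down in vein, and 8 up in fruit, all 8 of them members. Cysteine-rich receptor-like kinases, which sit in the cell membrane, gave 6 members of 18 genes so named, a family picked after its values were seen. Of these, 18 were called up in vein and 2 in fruit. Csa1G065930 was at 7.46 and 8.82 RPM in WT vein, 361 and 189 RPM in RNAi vein, 7.19 and 6.96 RPM in WT fruit and 42.4 and 67.5 RPM in RNAi fruit. Csa1G065420 was at 2.43 and 4.68 RPM in WT vein, 148 and 100.2 RPM in RNAi vein, 2.50 and 3.26 RPM in WT fruit and 12.1 and 25.2 RPM in RNAi fruit. The 6 members changed by 2.66 to 4.97 in vein and 1.44 to 2.83 in fruit on the log2 scale. Among calcium sensors, calmodulin-like 11 (Csa3G144210) was at 4.75 and 4.72 RPM in WT vein, 63.7 and 45.8 RPM in RNAi vein, 5.69 and 3.79 RPM in WT fruit and 49.3 and 32.6 RPM in RNAi fruit. RNAi fruit thus reached the range of RNAi vein in this gene. Calmodulin-like 41 (Csa3G854250) was at 1.33 and 5.11 RPM in WT vein, 85.01 and 78.9 RPM in RNAi vein, 0.728 and 0.261 RPM in WT fruit and 7.50 and 5.24 RPM in RNAi fruit. The EF-hand gene Csa3G825010 was at 0.940 and 1.64 RPM in WT vein, 64.8 and 46.8 RPM in RNAi vein, 0.0455 and 0.0435 RPM in WT fruit and 7.12 and 2.48 RPM in RNAi fruit. In WT fruit that is 1 read per library, and the fruit fold has no firm size.

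Proteolysis and protein turnover genes had 7 members among 146 named genes, of which 106 were called up and 15 down in vein, and 3 up in fruit. Subtilase 4 (Csa5G141040), a serine protease, was at 11.1 and 18.2 RPM in WT vein, 587 and 246 RPM in RNAi vein, 15.2 and 11.7 RPM in WT fruit and 105 and 72.1 RPM in RNAi fruit. Ubiquitin-conjugating enzyme 11 (Csa2G138770) was at 1.88 and 2.17 RPM in WT vein, 96.6 and 45.8 RPM in RNAi vein, 2.23 and 1.44 RPM in WT fruit and 11.7 and 11.9 RPM in RNAi fruit. An aspartyl protease, Csa4G361850, was at 2.32 and 3.57 RPM in WT vein, 76.8 and 31.4 RPM in RNAi vein, 4.92 and 4.18 RPM in WT fruit and 31.1 and 24.8 RPM in RNAi fruit. The F-box gene Csa2G094900, of a class that picks proteins for ubiquitination, was at 19.1 and 20.1 RPM in WT vein, 182 and 119.7 RPM in RNAi vein, 21.1 and 23.9 RPM in WT fruit and 77.8 and 72.3 RPM in RNAi fruit.

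Transporters had 2 members among 84 named genes, of which 48 were called up and 16 down in vein, and none in fruit by limma (12 at an unadjusted p under 0.05) or edgeR, while DESeq2 called 4 up and 2 down there. The words of this list leave out further members, such as Csa4G050260 (cation/H+ exchanger 18) and Csa2G074190 (ATP binding cassette subfamily B4). The drug resistance transporters above are counted in the detoxification list. Ammonium transporter 1;1 (Csa2G163170) was at 20.2 and 26.1 RPM in WT vein, 272 and 376 RPM in RNAi vein, 28.95 and 27.02 RPM in WT fruit and 67.1 and 97.3 RPM in RNAi fruit. The MtN21-like gene Csa6G485150 was at 7.13 and 9.59 RPM in WT vein, 39.4 and 36.98 RPM in RNAi vein, 0.774 and 0.696 RPM in WT fruit and 4.46 and 2.35 RPM in RNAi fruit, with both WT vein libraries above both RNAi fruit libraries. The lipid and esterase list had 5 members among 157 named genes, of which 91 were called up and 34 down in vein, and 3 up in fruit. Csa3G183350, a calcium-dependent lipid-binding protein, was at 62.9 and 58.2 RPM in WT vein, 447 and 509 RPM in RNAi vein, 55.1 and 65.2 RPM in WT fruit and 185 and 178 RPM in RNAi fruit. Lipid-transfer protein Csa3G017110 was at 14.4 and 28.01 RPM in WT vein, 472 and 123 RPM in RNAi vein, 10.2 and 5.22 RPM in WT fruit and 44.05 and 42.9 RPM in RNAi fruit. None of the 68 genes in the list of cell wall and phloem proteins was a member. The words of that list leave out extensins, and the wall protein extensin 3 was a member. In vein 24 of these were called up and 29 down. In fruit limma called none (11 at an unadjusted p under 0.05), edgeR none, and DESeq2 3 up and 2 down.

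Members that took the most reads in RNAi plants are given next, and since RPM is not per length, these levels are not compared between genes. The DCD domain gene Csa4G052730, of a domain found in proteins of development and cell death, was at 93.5 and 103 RPM in WT vein, 1030.1 and 1004 RPM in RNAi vein, 120.2 and 106 RPM in WT fruit and 371 and 302 RPM in RNAi fruit. A DC1 domain gene, Csa5G647470, was at 63.96 and 114 RPM in WT vein, 1166 and 528 RPM in RNAi vein, 53.6 and 53.5 RPM in WT fruit and 218 and 295 RPM in RNAi fruit. Csa6G525670, of the FAD-binding berberine family, was at 59.9 and 74.7 RPM in WT vein, 556 and 264 RPM in RNAi vein, 86.3 and 73.7 RPM in WT fruit and 256 and 203 RPM in RNAi fruit. RNAi vein replicate 1 was 2.21-fold and 2.11-fold above replicate 2 in the DC1 and berberine genes and 1.03-fold above it in the DCD gene.

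Neighbouring genes were often members together. In the order of identifiers along each chromosome, 20 members (13.3%) stood next to another member, and 272 of the 17633 other genes (1.54%) stood next to one. The 20 form 8 runs, of which 4 hold 3 genes. The first, on chromosome 1, holds the cysteine-rich receptor-like kinases Csa1G064820, Csa1G064830 and Csa1G064850. The next holds Csa1G065420, Csa1G065920 and Csa1G065930, of the same family. On chromosome 3, Csa3G827930, Csa3G828430 and Csa3G828930 are each annotated as AAA-ATPase 1, of ATPases that remodel proteins. A run on chromosome 6 holds Csa6G504440 and Csa6G504450, annotated as cytochrome BC1 synthesis, and the P-loop nucleoside triphosphate hydrolase Csa6G504460. Position in the order of the 17783 genes is not distance, and genes absent from the table may lie between.

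All 3 genes of the AAA-ATPase run were raised in both tissues, as the rule requires, while their RNAi replicates were not ordered alike. Of the 8 genes tested that are named AAA-ATPase 1 or cytochrome BC1 synthesis, 2 were no members. These were Csa1G045650 and Csa1G045670, both named AAA-ATPase 1. They changed by 2.97 and 4.03 in vein and by 0.42 and 0.60 in fruit on the log2 scale, and limma called neither in fruit. Csa3G827930 was at 1.22 and 2.17 RPM in WT vein, 42.3 and 57.7 RPM in RNAi vein, 0.410 and 0.566 RPM in WT fruit and 9.08 and 4.51 RPM in RNAi fruit. Csa3G828430 was at 6.52 and 14.4 RPM in WT vein, 257 and 162 RPM in RNAi vein, 3.69 and 2.79 RPM in WT fruit and 34.6 and 43.9 RPM in RNAi fruit, and Csa3G828930 was at 11.4 and 22.2 RPM in WT vein, 315 and 167 RPM in RNAi vein, 7.47 and 6.27 RPM in WT fruit and 45.7 and 58.6 RPM in RNAi fruit. In each, WT vein was above WT fruit by 1.12 to 1.46 on the log2 scale, and the change in vein exceeded that in fruit by 0.91 to 1.73. In the run on chromosome 6, Csa6G504440 was at 1.16 and 2.12 RPM in WT vein, 121 and 49.5 RPM in RNAi vein, 1.78 and 1.09 RPM in WT fruit and 32.95 and 22.4 RPM in RNAi fruit, Csa6G504450 was at 4.04 and 3.13 RPM in WT vein, 148 and 47.9 RPM in RNAi vein, 4.37 and 3.66 RPM in WT fruit and 16.7 and 16.97 RPM in RNAi fruit and Csa6G504460 was at 15.5 and 11.6 RPM in WT vein, 255 and 172 RPM in RNAi vein, 15.6 and 15.2 RPM in WT fruit and 59.8 and 42.9 RPM in RNAi fruit. Here WT levels overlapped between tissues, and the change in fruit ranged from 1.68 to 3.87. The chromosomes held the members much as they held all genes, with the largest gap on chromosome 3, which had 39 members (26.0%) and 20.98% of all genes.

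**Figure D4:**
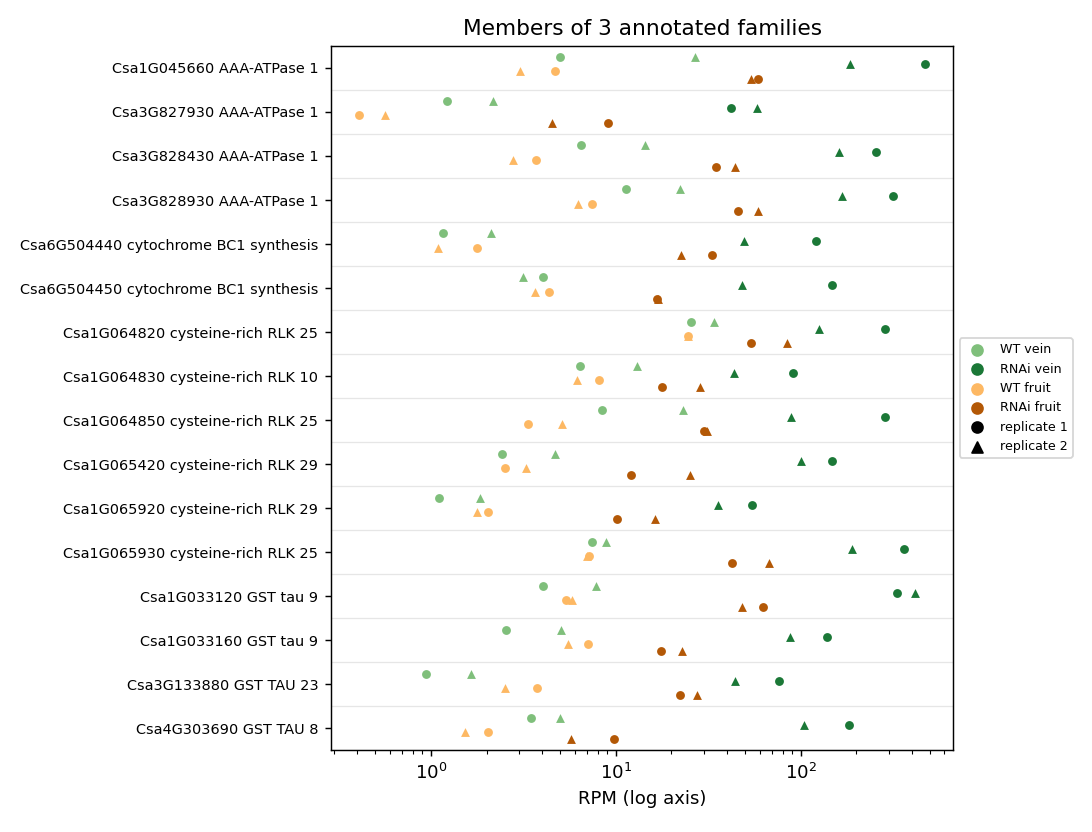
RPM (log axis) of the members in 3 annotated families, picked after their values were seen, in each library: 6 named AAA-ATPase 1 or cytochrome BC1 synthesis, 6 cysteine-rich receptor-like kinases (RLK) and 4 glutathione S-transferases (GST) of the tau class. Circles are replicate 1 and triangles replicate 2, and in each gene RNAi vein is the highest group.

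The change was larger in vein than in fruit in 147 of the 150 members, and the difference between tissues had a median of 1.80 on the log2 scale, beside 0.23 for all genes. By the interaction term of the fit (adjusted p under 0.05), 57 members were called larger in vein, where 8.27% of all genes were, and 0 were called larger in fruit (0 at an unadjusted p under 0.05). All 8 libraries entered the rule, so this too describes the chosen genes. edgeR called 39 members, where it called 5.52% of all genes larger in vein, and DESeq2 68, where it called 10.1%. The number was 0 in limma without any 1 of the 4 WT libraries (78 to 102 at an unadjusted p under 0.05), 13 without either RNAi fruit library, 79 without RNAi vein replicate 1 and 117 without RNAi vein replicate 2. Calls of a tissue difference over all genes moved in the same direction under these omissions. The unnamed Csa7G037610 had the largest difference, 4.07 (SE 0.86), and was at 10.9 and 26.9 RPM in WT vein, 1752 and 626 RPM in RNAi vein, 53.3 and 27.9 RPM in WT fruit and 118 and 160.1 RPM in RNAi fruit. The small heat shock protein Csa3G020080 of mitochondria, a chaperone, was at 7.30 and 8.82 RPM in WT vein, 187 and 683 RPM in RNAi vein, 8.51 and 4.26 RPM in WT fruit and 26.4 and 23.8 RPM in RNAi fruit, a difference of 3.43 (SE 0.83). Csa5G148780, a second DCD domain gene, was at 29.8 and 28.7 RPM in WT vein, 614 and 483 RPM in RNAi vein, 54.03 and 33.1 RPM in WT fruit and 158 and 113 RPM in RNAi fruit. At the other end, Csa1G614640 and Csa5G136900, both without a name, changed alike in both tissues. Csa1G614640 was at 148 and 175 RPM in WT vein, 1225 and 462 RPM in RNAi vein, 25.9 and 22.2 RPM in WT fruit and 119 and 101 RPM in RNAi fruit, and Csa5G136900 was at 69.7 and 82.3 RPM in WT vein, 202 and 192 RPM in RNAi vein, 26.6 and 24.7 RPM in WT fruit and 63.5 and 57.4 RPM in RNAi fruit.

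In RNAi plants, 138 members had both vein libraries above both fruit libraries, as 23.7% of all genes did, 3 had both below, as 44.1% of all genes did, and 9 overlapped. The median of RNAi vein over RNAi fruit was 2.01 on the log2 scale, beside -0.20 for all genes. The fit called 114 members higher in vein, where 8.36% of all genes were, and 2 lower, where 14.1% of all genes were. The 2 were allene oxide cyclase 3 and jasmonate-zim-domain protein 1. In WT plants 55 members were above, against 21.6% of all genes, 40 were below, against 67.1%, and 55 overlapped. The median of WT vein over WT fruit was 0.13, beside -0.51 for all genes. Called higher in WT vein were 23 members, where 7.45% of all genes were, and lower 12, where 22.7% of all genes were. With TMM factors the median of all genes moved to -0.09 and that of the members to 0.51, and the counts became 28 higher and 2 lower, where 11.3% of all genes were called in each direction. These 2 were again allene oxide cyclase 3 and jasmonate-zim-domain protein 1. edgeR called 38 higher (11.7% of all genes) and 3 lower (12.2%), and DESeq2 48 higher (14.1%) and 3 lower (11.8%). The floor of 1 RPM in the rule applied to WT vein and not to WT fruit, which favours genes with reads in vein. Leaving out 1 WT library lowered the calls over all genes in both directions. The number called higher in WT vein was 8 without replicate 2 of WT vein or of WT fruit, and 14 without replicate 1 of WT fruit. The number called lower was 6 without replicate 1 of WT vein or of WT fruit.

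Replicates of the members were further apart than those of other genes. In RNAi vein 52 members (34.7%) were more than 2-fold apart, against 14.9% of all genes. In WT vein 22 members (14.7%) were, against 0.450%, in RNAi fruit 21 (14.0%) against 2.36%, and in WT fruit 10 (6.67%) against 1.59%. Within each group, most members deviated in the same direction. WT vein replicate 2 was above replicate 1 in 121 members (80.7%, against 62.9% of all genes), and RNAi vein replicate 1 was above replicate 2 in 123 (82.0%, against 62.8%). The median log2 ratio of replicate 1 to replicate 2 was -0.35 in WT vein and 0.63 in RNAi vein, and -0.06 and 0.17 over all genes. In WT fruit replicate 1 was above replicate 2 in 109 members (72.7%, against 54.3% of all genes). In RNAi fruit it was above in 99 members (66.0%, against 36.7%). The fruit medians were 0.17 in WT and 0.25 in RNAi, and 0.02 and -0.07 over all genes. RNAi vein replicate 1 was also the library with the lowest sum of the 21 photosynthesis genes, 2715 RPM against 16483 RPM in replicate 2. Of these 21 genes, 21 were lower in vein at an unadjusted p under 0.05, and 8 were called down there by limma, 8 by edgeR and 19 by DESeq2. In fruit limma and edgeR called none, DESeq2 called 1 down, and 3 were lower at an unadjusted p under 0.05. Their part in the members' change was not tested. The members summed to 36802 RPM in RNAi vein replicate 1 and 23279 RPM in replicate 2, so that both were at least 9.97-fold above the higher WT vein library (2335 RPM).

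**Figure D5:**
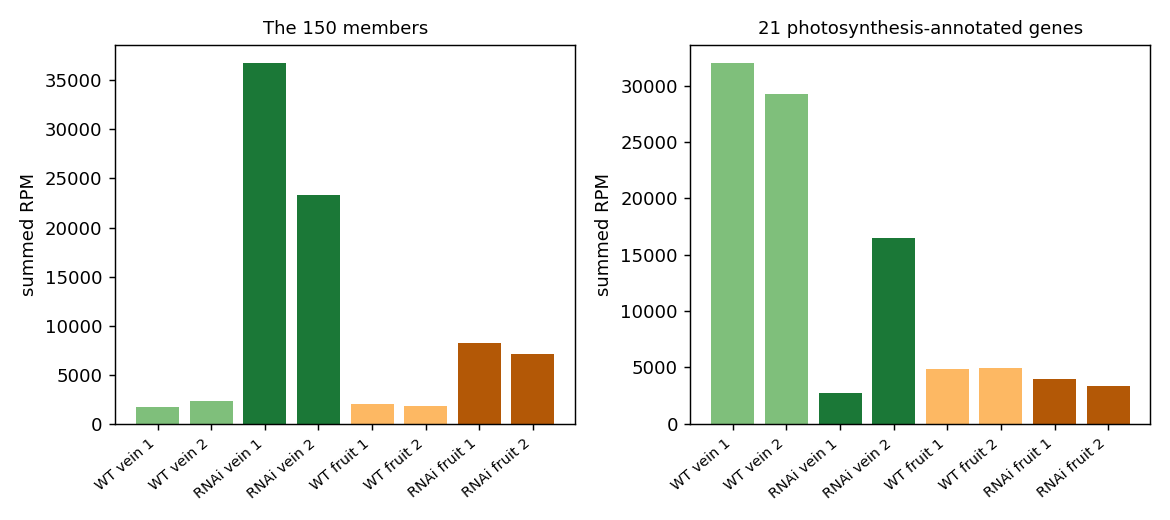
Summed RPM (y axes from 0) of the 150 members (left) and of the 21 genes annotated as photosystem, chlorophyll-binding or Rubisco proteins (right) in each library. The members sum to 36802 and 23279 RPM in RNAi vein and to 1742 and 2335 RPM in WT vein, and the photosynthesis genes to 2715 and 16483 RPM and to 32025 and 29277 RPM.

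The widest gap between RNAi vein libraries was that of heat shock protein 90, and the next that of extensin 3. Extensin 3 (Csa7G312940), a wall glycoprotein, was at 3.48 and 5.93 RPM in WT vein, 590.5 and 43.03 RPM in RNAi vein, 19.7 and 4.61 RPM in WT fruit and 159.9 and 90.6 RPM in RNAi fruit, and its RNAi vein libraries were 13.7-fold apart. Heat shock protein 90 (Csa3G183950), a chaperone, went the other way with a 19.9-fold gap, at 2.16 and 2.02 RPM in WT vein, 8.19 and 163 RPM in RNAi vein, 1.05 and 1.04 RPM in WT fruit and 3.15 and 7.17 RPM in RNAi fruit. In RNAi fruit the widest gaps were those of Csa1G589710, Csa6G516960 and Csa1G422990. The unnamed Csa1G589710 was at 0.829 and 1.30 RPM in WT vein, 386 and 105 RPM in RNAi vein, 7.56 and 1.44 RPM in WT fruit and 167 and 21.2 RPM in RNAi fruit. F-box gene Csa6G516960 was at 7.85 and 8.73 RPM in WT vein, 245 and 128 RPM in RNAi vein, 9.88 and 5.70 RPM in WT fruit and 126 and 21.4 RPM in RNAi fruit, and the unnamed Csa1G422990 was at 9.62 and 6.12 RPM in WT vein, 323 and 208 RPM in RNAi vein, 10.6 and 6.53 RPM in WT fruit and 150.5 and 26.9 RPM in RNAi fruit. In these 3 genes RNAi fruit replicate 1 was at least 5.6-fold above replicate 2. The 4 genes named for senescence, 1 of them a member (Csa2G270210), were all called up in vein, and none in fruit by limma (3 at an unadjusted p under 0.05). They summed to 73.5 and 74.2 RPM in WT vein, 817 and 434 RPM in RNAi vein, 288 and 205 RPM in WT fruit, and 468 and 254 RPM in RNAi fruit. The part of senescence in the members' change was not tested.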

How the data were processed

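Leaf midvein and young fruit RNA of WT and of 1 CsIND-RNAi line was sequenced as 8 directional libraries, 2 for each of 4 groups. TopHat mapping by the authors was to version 2i of the cucumber genome, and their HTSeq-count output was deposited as RPM for 17783 genes. The tool versions and the strand setting of the count are not given in the sources used here. Dividing by the value of 1 read gave whole numbers for 100% of values (within 0.05), which recovered the reads. The labels call the replicates biological and do not name the plants.

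Members were chosen by the score, and the members and lists were chosen with earlier results of these data known. Gene names come from the study's tables of changed genes, part of which was shortened, so that WRKY names, for example, are missing. A reference table of 23999 genes matched 0 identifiers, so no sequences or promoters were used. log2(RPM + 0.5) of the deposited values was fitted with limma 3.58.1 (R 4.3.3, trended empirical Bayes, two-sided), with 1 mean per group and no block, for the 17778 genes reaching 1 RPM in 2 or more libraries, at a Benjamini-Hochberg adjusted p under 0.05 and, except for the interaction term, at least 2-fold. The fit has 4 residual and 2.69 prior degrees of freedom. A trial on simulated counts gave all groups the same spread, which these data do not have, so it does not vouch for the calls here. An exact permutation test of 2 against 2 libraries could not go below p = 0.333. Members named are the 10 highest scores, up to 4 highest scores per word list, the 5 with most reads in RNAi vein and in RNAi fruit, the 5 largest and 5 smallest differences between tissues, the 3 on each side of the limit, the 3 with the widest replicate gaps in RNAi vein and in RNAi fruit, and runs of 3 or more neighbours. Further genes and families (RNA silencing, glutathione S-transferases, cysteine-rich receptor-like kinases, AAA-ATPase 1 with cytochrome BC1 synthesis, basic region/leucine zipper motif 60, the TIFY gene, allene oxide cyclase 3, the drug resistance transporters, Csa3G135120, Csa2G270210 and members given as missed by the words of a list) were picked after their values were seen.

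Alternatives were a pseudocount of 0.1 or 1, no filter or a stricter one, separate fits, TMM factors, quantile normalization, DESeq2 1.42.0 and edgeR 4.0.16 (quasi-likelihood) on recovered reads, a block for the replicate number, and leaving out each library. For the rule, other floors, group means and TMM factors were tried. A block with crossed vein numbers was added after seeing the data.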

Additional observations from a re-analysis of the deposited data

Results flagged for a closer look

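Of the 68 members named by the rule, 20 had a change in vein that differed from the change in fruit by the interaction term of the limma fit (adjusted p under 0.05). In each the vein change was the larger. The same call, larger in vein, was made in 38% of all members and in 8.27% of all genes. Members with the largest and the smallest differences between tissues were named by the rule, so part of the count follows from that choice. The members were selected on both contrasts, and the calls depended on each single WT library, for the members and over all genes alike. These values are thus a description. As a difference of log2 fold changes, vein minus fruit, the values of 3 or more were 4.07 for Csa7G037610 (no name), 3.73 for Csa3G592690 (glycosyltransferase 74E2), 3.44 for Csa2G020870 (TIR-NBS-LRR protein), 3.43 for Csa3G020080 (small heat shock protein) and 3.34 for Csa5G155450 (osmotin 34). Values between 2.2 and 3 were 2.74 for Csa1G033120 (glutathione S-transferase tau 9), 2.70 for Csa3G135720 (2-oxoglutarate-dependent oxygenase), 2.55 for Csa1G065420 (cysteine-rich receptor-like kinase), 2.54 for Csa5G148780 (DCD domain), 2.38 for Csa3G002400 (acyl activating enzyme 1), 2.31 for Csa2G138770 (ubiquitin-conjugating enzyme 11), 2.26 for Csa2G163170 (ammonium transporter 1;1), 2.24 for Csa3G133880 (glutathione S-transferase tau 23) and 2.23 for Csa6G504460 (P-loop nucleoside triphosphate hydrolase). Below these came 2.09 for Csa1G065930 (cysteine-rich receptor-like kinase), 2.06 for Csa1G572390 (NAC factor), 2.06 for Csa1G065920 (cysteine-rich receptor-like kinase), 1.80 for Csa4G052730 (DCD domain), 1.38 for Csa3G183350 (lipid-binding protein) and 1.16 for Csa2G094900 (F-box protein). Groups of 2 libraries allow no check for a sample that stands apart from the others of its group.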

How the results depend on the processing

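The members' direction in vein and in fruit was the same under each of 20 settings, while counts of calls in fruit and of tissue differences depended on the fit. Members called up in fruit, 55 in the report, were 118 with separate fits and 140 with DESeq2, and 0 to 140 when 1 library was left out. Members with a called tissue difference, 57 in the report, were 32 with quantile normalization and 0 to 117 when 1 library was left out. Members called higher in WT vein than WT fruit, 23, became 38 with quantile normalization, 38 with edgeR and 48 with DESeq2, and 8 to 28 when 1 library was left out. Those called lower, 12, became 2 with TMM factors, 2 with quantile normalization, 3 with edgeR and 3 with DESeq2, and 6 to 13 when 1 library was left out. Members called up in vein ranged from 138 to 150 over the libraries left out, and 135 were called in every setting. Of the 150 members, the rule kept 145 with a pseudocount of 0.1 or 1, 140 with TMM factors, 129 with a floor of 0.5 RPM, 123 with a floor of 2 RPM, 117 with group means, 112 with no floor, and 101 (without RNAi fruit replicate 2) to 147 when 1 library was left out. Among the 68 named members, 9 lost the call in vein under at least 1 setting, and 24 lost and 43 gained the call in fruit. All genes called up in fruit numbered 75 in the report, 190 with separate fits and 326 with DESeq2. Leaving out 1 library moved the calls in fruit and of tissue differences over all genes in the same direction as those of the members. Separate fits give no interaction term.

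With the replicate number as a replicate block, 30 members were called up in fruit and 37 had a called tissue difference, and the other counts of members moved by less than 1.5 times. Over all genes, 38 were then called up in fruit, and the genes with a called tissue difference fell from 1470 to 784 (larger in vein) and from 562 to 287 (larger in fruit). The labels give the numbers without saying that they mark a shared batch, and the deviations of same-numbered libraries correlated at -0.11 to 0.22 over the 6 pairs of groups, with the lowest value between the vein groups, 0.14 between the fruit groups and the highest value between RNAi vein and RNAi fruit. With the vein numbers crossed, chosen after seeing the data, 76 members were called up in fruit and 53 had a called tissue difference. Depth limits members with few reads in WT fruit, where 2 members were under 3 reads in each library.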
